A study of Homo sapiens with 6 samples.

Results

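The ligands of the tumour necrosis factor (TNF) superfamily, their receptors and the TRAF adaptor proteins were followed in LoVo, an established human colon adenocarcinoma cell line. The genes were taken by symbol alone, as those whose names begin with TNFSF or TNFRSF and a digit, the numbered TRAF genes, and TNF, LTA, LTB, LTBR, CD40, CD70, CD27 and NGFR. Of 22496 symbols with a value in at least 1 library, 45 were such genes, made up of 15 ligands, 22 receptors, 7 TRAFs and 1 antisense RNA, TNFRSF14-AS1, which carries a receptor's name. CD40, TNFSF11, TNFRSF13B and TNFRSF17 also have such symbols, but no library lists them, so they are not among the 45. The cells formed 2 groups, with 3 libraries labelled SHARPIN knockout and 3 labelled non-target, the control genotype, and the comparison asks what loss of SHARPIN does to gene expression. The labels name no treatment in either group, and they do not say whether the knockout cells were 1 clone or a pool. The labels do not state that replicates were grown separately, so the p-values cover the spread among these libraries only, and that spread may be technical.

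TNF superfamily ligands are mostly membrane proteins or shed cytokines of immune cells, and their receptors sit on the surface of many cell types, epithelium included. Receptors with a death domain, such as TNFRSF1A and the TRAIL receptors, bind the adaptors TRADD or FADD. Most others bind TRAF proteins directly, and decoy receptors bind ligand without passing on a death signal. At TNFRSF1A, SHARPIN is part of the complex that builds linear ubiquitin chains, which hold the NF-kB kinase complex in place. TRAF2 and TRAF3, with the ubiquitin ligases BIRC2 and BIRC3, keep the kinase MAP3K14 (NIK) low until a receptor such as TNFRSF12A or LTBR is engaged, which opens the alternative NF-kB arm through NFKB2 and RELB.

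Values are FPKM, that is, fragments scaled to transcript length and to the mapped total of the library, so levels of different genes can be set side by side per length. The smallest steps between values gave an estimated 20900000 to 22600000 fragments per library, at which 1 fragment on a transcript of 2 kb is worth 0.0221 to 0.0239 FPKM. SHARPIN transcript itself stood at 7.55, 11.9 and 18.0 FPKM in knockout replicates 1, 2 and 3, against 11.9, 13.9 and 12.9 FPKM in non-target replicates 1, 2 and 3 (limma, adjusted p = 0.827). The groups overlapped, and the transcript level is therefore no check of the knockout label. The summed FPKM was 522919 in knockout replicate 3 and 416852 to 431264 in the other 5 libraries. On log2(FPKM + 1), non-target replicates 2 and 3 correlated at r = 0.997, against 0.946 to 0.98 for other pairs within a group. The labels do not say whether these 2 are distinct samples, and if they are not, the control spread is too small. A fit with these 2 libraries as 1 sample is given at the end. Of 10 markers of colon epithelium, 2 rose, 3 fell and 5 did not pass. EPCAM, KRT8, KRT18 and CDH1 were at 26.6 FPKM or more in every library, KRT19 and KRT20 rose, and CDH17, CDX1 and VIL1 fell. CDX1 and VIL1 reached 1 FPKM in the non-target libraries alone, so the filter partly sets their calls. The 11 leukocyte markers summed to 0.378 to 0.48 FPKM in the knockout libraries and 0.589 to 0.756 FPKM in the non-target libraries. Of these, CD3E, CD3G and MS4A1 were listed in no library and count as 0. The 6 fibroblast markers summed to 0.798, 0.274 and 0.234 FPKM in knockout replicates 1, 2 and 3, against 18.8, 7.95 and 7.77 FPKM in non-target replicates 1, 2 and 3. LUM made up most of this in non-target replicates 2 and 3, while COL1A1 and COL1A2 stood at 6.60 and 6.12 FPKM in non-target replicate 1 and at 0.29 FPKM or less in all other libraries. The 4 endothelial markers summed to 0.038 to 0.062 FPKM in the knockout libraries and 0.556 to 0.626 FPKM in the non-target libraries, and PECAM1 made up 0.533 to 0.616 FPKM of the non-target sums. In bulk RNA, fewer cells that express a gene and less of its RNA per cell cannot be told apart.

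The receptors and TRAFs were well represented in these cells, and most ligands were not. Summed over the 22 receptors the level was 453.9, 387.2 and 402.3 FPKM in knockout replicates 1, 2 and 3, against 357.4, 325.6 and 325.6 FPKM in non-target replicates 1, 2 and 3. Such a sum follows its most abundant genes and is no change of the whole class. TNFRSF12A alone averaged 111 FPKM in the knockout libraries and 57.1 FPKM in the non-target libraries. In the fit described below, 3 of the 15 receptors tested rose, 1 fell and 11 did not pass. Their median log2 fold change was 0.03. The 15 ligands together reached 26.4 to 41 FPKM in the knockout libraries and 29 to 34.6 FPKM in the non-target libraries, and TNFSF9 alone made up 69.7% to 92.5% of that. The 7 TRAFs summed to 92.8 to 104.8 FPKM in the knockout libraries and 75 to 81.4 FPKM in the non-target libraries. None of the 6 TRAFs tested passed in that fit. Of the 45 genes, 9 stood at 10 FPKM or more in every library. They were TNFSF9, TNFRSF1A, TNFRSF10B, TNFRSF21, LTBR, TNFRSF1B, TNFRSF12A, TRAF4 and TRAF7. At the other end, 15 stayed below 1 FPKM in every library and 11 of these below 0.1 FPKM.

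**Figure D1:**
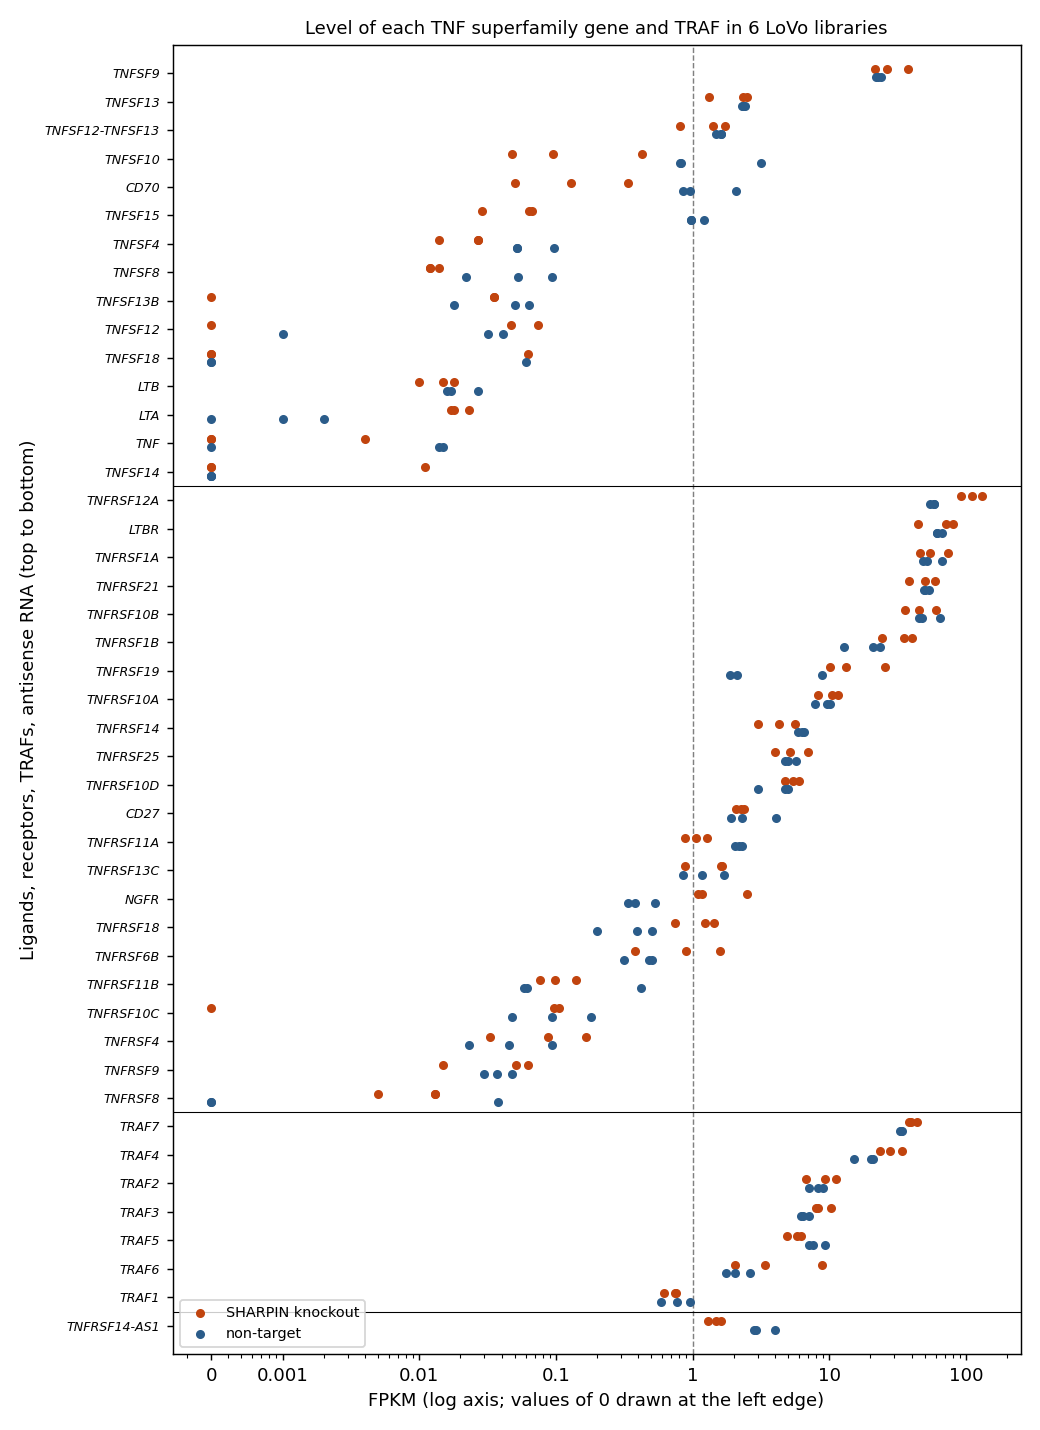
FPKM of the 45 genes on a log axis, 1 row per gene, with the 3 knockout libraries drawn above the 3 non-target libraries; values of 0 are placed at the left edge and the dashed line marks 1 FPKM. Ligands other than TNFSF9 lie below 4 FPKM, while 5 receptors lie above 30 FPKM in every library.

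Statistics were computed for the 25 genes that reached 1 FPKM in at least 3 of the 6 libraries, within a limma fit of all 13092 genes that did so, on log2(FPKM + 1), with Benjamini-Hochberg adjustment over all 13092. Fold changes below are on that scale, knockout minus non-target, and understate the change of low genes. In the knockout libraries TNFRSF12A, TNFRSF19 and NGFR rose and TNFRSF11A and TNFRSF14-AS1 fell, at adjusted p below 0.05, while 20 of the 25 did not pass. The 5 that passed were 20% of these genes, against 12.2% of all genes tested, and no test of that difference was made. Without TNFRSF14-AS1 and the readthrough transcript TNFSF12-TNFSF13, 4 of 23 passed, or 17.4%. Of all genes tested, 6.26% passed and were higher and 5.93% passed and were lower in the knockout libraries. The median log2 fold change was 0.09 over the 25 genes and 0.02 over all genes tested. The 2 groups' values were fully apart in 11 of the 25, or 44%, against 32.1% of all genes tested. NGFR entered the test through the knockout libraries alone, since no non-target library reached 1 FPKM, so the filter partly sets its place among the genes that differ. With no filter on low values 5 of the 45 genes passed, but they were TNFRSF12A, which rose, and TNFRSF11A, TNFRSF14-AS1, TNFSF15 and CD70, which fell. In that fit 7.89% of all 22484 genes passed, 707 higher and 1066 lower in the knockout libraries.

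With the replicate number as a block, 8 of the 25 passed, or 32%, against 25.3% of all genes tested. The 3 genes added were TNFRSF1B, TRAF4 and TRAF6, each higher in the knockout libraries. Under the block each gene keeps 2 degrees of freedom for its own spread, and 86.4% of genes took their spread wholly from genes of similar level. On each gene's own spread with the block, a setting added after the data were seen, 0 genes passed by limma's linear model. The lowest adjusted p of that model was 0.17 among the 25. Its unadjusted p was below 0.05 in 8 of the 25, against 2598 of all 13092 genes tested.

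**Figure D2:**
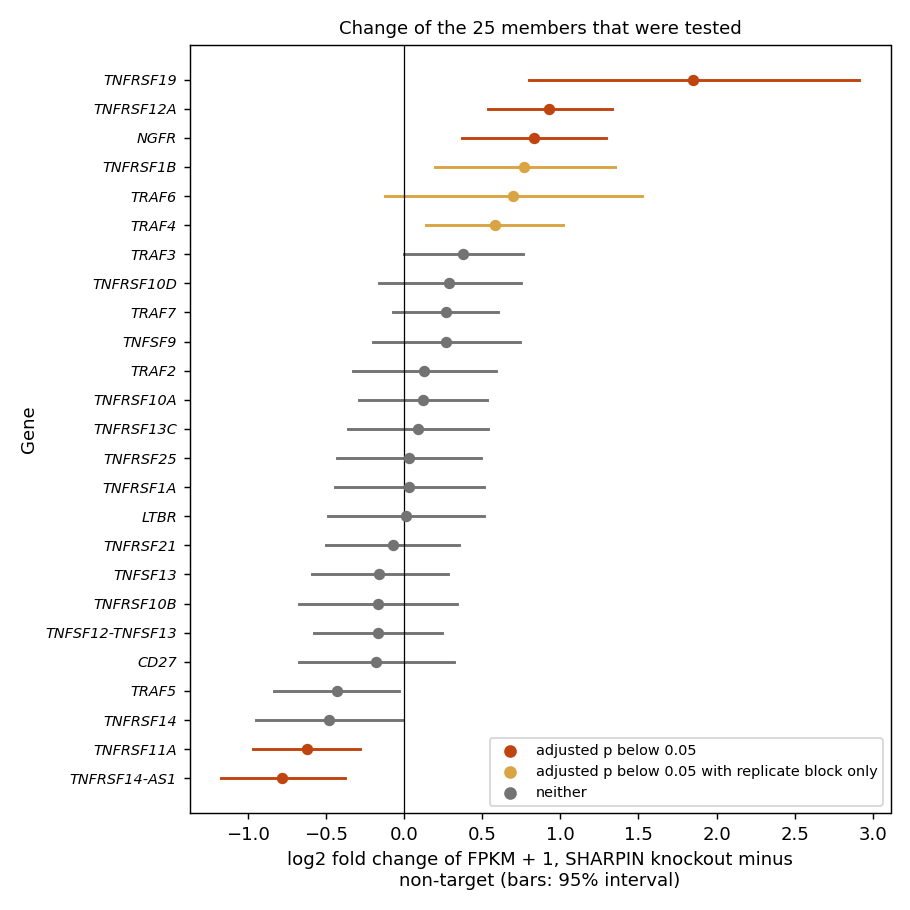
Log2 fold change of FPKM + 1, knockout minus non-target, for the 25 genes tested, with 95% intervals from limma; colours mark adjusted p below 0.05 without the replicate block, with it only, or neither. TNFRSF19, TNFRSF12A and NGFR lie to the right of 0 and TNFRSF11A and TNFRSF14-AS1 to the left, with intervals clear of 0.

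Among the ligands, none of the 3 genes tested passed. TNFSF9 (4-1BB ligand), a T-cell costimulator and the most abundant ligand here, stood at 37.9, 21.7 and 26.3 FPKM in knockout replicates 1, 2 and 3, against 24.1, 22.8 and 22.1 FPKM in non-target replicates 1, 2 and 3. Knockout replicate 1 was the highest and the groups overlapped. Its log2 fold change was 0.27, with a 95% interval of -0.20 to 0.74 (limma, adjusted p = 0.471). Its receptor TNFRSF9 stayed at 0.063 FPKM or less in every library. TNFSF13 (APRIL), a B-cell survival factor, averaged 2.06 ± 0.639 FPKM in the knockout libraries and 2.36 ± 0.0667 FPKM in the non-target libraries (SD, n = 3 each; limma, adjusted p = 0.666). The readthrough transcript TNFSF12-TNFSF13 averaged 1.31 ± 0.46 and 1.57 ± 0.0778 FPKM in the knockout and non-target libraries (SD, n = 3 each; limma, adjusted p = 0.614). It shares 1263 exonic bases with TNFSF13 and 553 with TNFSF12, so how reads were divided among these genes is uncertain.

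The other ligands missed the filter and carry no test in that fit. TNFSF15 (TL1A), the ligand of TNFRSF25, stood at 0.067, 0.064 and 0.029 FPKM in knockout replicates 1, 2 and 3, against 0.969, 0.973 and 1.20 FPKM in non-target replicates 1, 2 and 3. All 3 knockout libraries were low and all 3 non-target libraries stood near 1 FPKM, a ratio of the means of 0.0509. TNFSF10 (TRAIL), which triggers apoptosis through TNFRSF10A and TNFRSF10B, stood at 0.428, 0.048 and 0.095 FPKM in knockout replicates 1, 2 and 3, against 3.14, 0.827 and 0.807 FPKM in non-target replicates 1, 2 and 3. The groups did not overlap, and replicate 1 was the highest library of each. CD70, the ligand of CD27, stood at 0.336, 0.128 and 0.05 FPKM in knockout replicates 1, 2 and 3, against 2.08, 0.953 and 0.85 FPKM in non-target replicates 1, 2 and 3. Here too the knockout libraries were all lower and replicate 1 was the highest of each group. With no filter on low values, which tests all 45 genes, the adjusted p was 0.0022 for TNFSF15, 0.0461 for CD70 and 0.131 for TNFSF10. Non-target replicate 1, the highest library for TNFSF10 and CD70, is also the library with the fibroblast collagens given above, and their part in these levels was not tested.

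**Figure D3:**
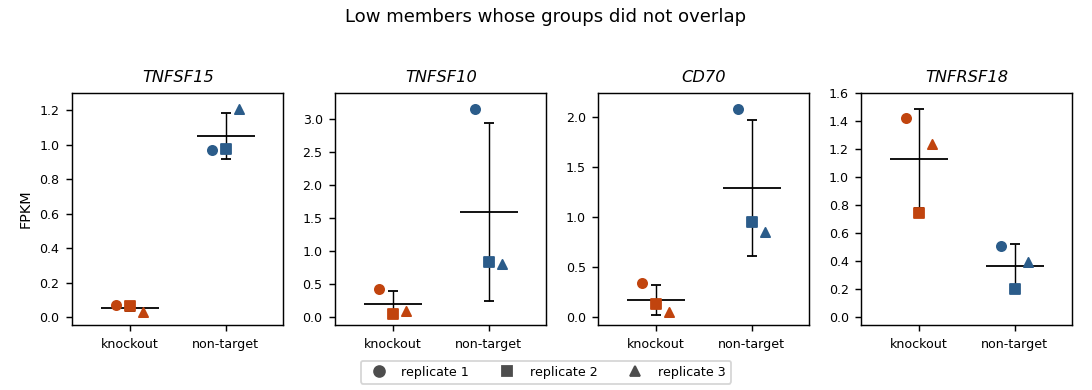
FPKM of TNFSF15, TNFSF10, CD70 and TNFRSF18 in each library, with knockout left of non-target; symbols mark the replicate number, lines the mean and bars the SD of 3 libraries. TNFSF15, TNFSF10 and CD70 are lower and TNFRSF18 is higher in the 3 knockout libraries, with no overlap between groups.

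TNF itself was at 0.015 FPKM or less in every library, and its lymphotoxin relatives LTA and LTB at 0.023 and 0.027 FPKM or less. TNFSF12 (TWEAK), the ligand of TNFRSF12A, was at 0.074 FPKM or less. TNFSF13B (BAFF), TNFSF14 (LIGHT), TNFSF18 (GITR ligand), TNFSF4 (OX40 ligand) and TNFSF8 (CD30 ligand) were at 0.097 FPKM or less. Of these genes LTA was higher and TNFSF4 and TNFSF8 were lower in all 3 knockout libraries, and the other 6 overlapped between groups. The groups were apart in 32.1% of the 13092 genes tested, and no such share was computed for genes at these low levels. LTA stood at 0.018, 0.023 and 0.017 FPKM in knockout replicates 1, 2 and 3, against 0.002, 0 and 0.001 FPKM in non-target replicates 1, 2 and 3. In the knockout libraries LTA was close to the worth of 1 fragment on a transcript of 2 kb, and in the non-target libraries well below it. The highest value of these genes, 0.097 FPKM for TNFSF4 in non-target replicate 2, was a few times that worth. None of them was in the filtered fit, and a pseudocount of 1 FPKM leaves little room for a change below 0.1 FPKM.

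Of the 6 receptors with a death domain, 1 passed and 5 did not. TNFRSF1A, the main TNF receptor of epithelial cells, stood at 73.6, 46.0 and 54.3 FPKM in knockout replicates 1, 2 and 3, against 67.1, 48.9 and 52.2 FPKM in non-target replicates 1, 2 and 3. The groups overlapped throughout, and replicate 1 was the highest of each. Its log2 fold change was 0.03, with a 95% interval of -0.44 to 0.51 (limma, adjusted p = 0.944). The TRAIL receptor TNFRSF10B averaged 47.2 ± 12.4 FPKM in the knockout libraries and 52.5 ± 10.4 FPKM in the non-target libraries (SD, n = 3 each; limma, adjusted p = 0.701). Its partner TNFRSF10A averaged 10.1 ± 1.69 and 9.21 ± 1.19 FPKM in the knockout and non-target libraries (SD, n = 3 each; limma, adjusted p = 0.744). Both TRAIL receptors were thus well above their ligand in either group. TNFRSF21 (death receptor 6) averaged 49.4 ± 10.7 FPKM in the knockout libraries and 51.2 ± 2.08 FPKM in the non-target libraries (SD, n = 3 each; limma, adjusted p = 0.855). TNFRSF25, the receptor of TNFSF15, averaged 5.4 ± 1.5 and 5.16 ± 0.494 FPKM in the knockout and non-target libraries (SD, n = 3 each; limma, adjusted p = 0.943). The 95% interval of its log2 fold change was -0.43 to 0.49.

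NGFR, the low-affinity neurotrophin receptor, was the death domain receptor that rose. It stood at 2.49, 1.16 and 1.10 FPKM in knockout replicates 1, 2 and 3, against 0.532, 0.38 and 0.339 FPKM in non-target replicates 1, 2 and 3. All knockout libraries lay above all non-target libraries, and replicate 1 was the highest of each. In limma the change was 0.83 ± 0.21 on the log2 scale (SE; adjusted p = 0.0284). It was 1.63 with a pseudocount of 0.1. Leaving out knockout replicate 2 or any non-target replicate ended the call (adjusted p = 0.0591, and 0.0593 to 0.0856). NGFR lies on chromosome 17 at 47572655 to 47592370 (GRCh37), where antisense genes overlap its exons, and no source used here says whether the counting used strand.

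TNFRSF12A (Fn14), the receptor of the cytokine TWEAK, was the most abundant receptor in the knockout libraries and below LTBR in each non-target library. It stood at 131, 91.5 and 110.4 FPKM in knockout replicates 1, 2 and 3, against 58.7, 58.0 and 54.7 FPKM in non-target replicates 1, 2 and 3. The lowest knockout library was well above the highest non-target library, and the non-target libraries were tightly grouped. The ratio of the means was 1.94. In limma its change was 0.93 ± 0.18 on the log2 scale (SE; adjusted p = 0.00752). Of the 5 genes that passed, it was the one that passed whichever single library was left out (adjusted p = 0.0131 to 0.0431). On its own spread alone the adjusted p was 0.0564. TNFRSF12A lies on chromosome 16 at 3068446 to 3072384 (GRCh37), with 40 exonic bases shared with CLDN6 on the opposite strand.

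TNFRSF19 (TROY), an orphan receptor of the family that marks intestinal stem cells in mice and is a Wnt target, had the largest fold change of the 25. It stood at 25.6, 13.2 and 10.1 FPKM in knockout replicates 1, 2 and 3, against 8.86, 2.13 and 1.88 FPKM in non-target replicates 1, 2 and 3. The groups did not overlap, but non-target replicate 1 came close to knockout replicate 3. The part of the fibroblast transcripts of non-target replicate 1 in its TNFRSF19 level was not tested. Within the replicate numbers the knockout library was 2.88, 6.19 and 5.4 times its non-target partner for replicates 1, 2 and 3. In limma the change was 1.85 ± 0.47 on the log2 scale (SE; adjusted p = 0.031), and 2.43 without non-target replicate 1 (adjusted p = 0.00473). Leaving out any 1 of the other 5 libraries ended the call (adjusted p = 0.0658 to 0.149), as did no filter (0.0954) and TPM scaling (0.0538). Without both replicate 1 libraries it was 2.07 (adjusted p = 0.00126).

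TNFRSF11A (RANK), the receptor of the bone and mammary cytokine RANKL, fell. It stood at 1.07, 1.27 and 0.873 FPKM in knockout replicates 1, 2 and 3, against 2.30, 2.18 and 2.06 FPKM in non-target replicates 1, 2 and 3. Every knockout library was below every non-target library, and spread was small in both groups. In limma the change was -0.62 ± 0.15 on the log2 scale (SE; adjusted p = 0.0272). It was -0.97 with a pseudocount of 0.1. Leaving out knockout replicate 3 or any non-target replicate ended the call (adjusted p = 0.0606 to 0.121). Its soluble decoy TNFRSF11B (osteoprotegerin) stood at 0.14 FPKM or less in the knockout libraries, and at 0.418, 0.061 and 0.058 FPKM in non-target replicates 1, 2 and 3. The library with the high value is again non-target replicate 1.

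The 300-base windows around the starts of TNFRSF19, TNFRSF11A and TNFRSF14-AS1, 250 bases before to 50 after, are shown as those of the 5 genes past the threshold that have a window in the RefSeq table. They are RefSeq sequences (GRCh38.p14), and an exact match gave the GRCh37 positions. Capitals mark matches, on either strand, to the NF-kB consensus and to the GC box GGGCGG, which did not overlap each other. The AP-1 letters TGANTCA and the TCF/LEF letters CTTTGNT were searched too and matched none of the 4 windows.
TNFRSF19 first start, chr13:24144301-24144600, plus strand: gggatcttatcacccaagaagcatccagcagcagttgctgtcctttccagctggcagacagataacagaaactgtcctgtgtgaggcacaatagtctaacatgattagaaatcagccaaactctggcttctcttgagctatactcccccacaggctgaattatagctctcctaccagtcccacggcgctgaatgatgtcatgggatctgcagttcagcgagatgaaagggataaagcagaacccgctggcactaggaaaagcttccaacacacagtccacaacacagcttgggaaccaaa
TNFRSF19 second start, chr13:24153249-24153548, plus strand: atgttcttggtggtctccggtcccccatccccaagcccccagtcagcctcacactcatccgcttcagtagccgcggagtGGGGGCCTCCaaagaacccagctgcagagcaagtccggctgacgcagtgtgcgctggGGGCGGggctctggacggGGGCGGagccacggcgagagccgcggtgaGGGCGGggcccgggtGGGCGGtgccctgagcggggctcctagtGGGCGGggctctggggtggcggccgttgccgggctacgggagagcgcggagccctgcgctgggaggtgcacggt
TNFRSF11A, chr18:59992293-59992592, plus strand: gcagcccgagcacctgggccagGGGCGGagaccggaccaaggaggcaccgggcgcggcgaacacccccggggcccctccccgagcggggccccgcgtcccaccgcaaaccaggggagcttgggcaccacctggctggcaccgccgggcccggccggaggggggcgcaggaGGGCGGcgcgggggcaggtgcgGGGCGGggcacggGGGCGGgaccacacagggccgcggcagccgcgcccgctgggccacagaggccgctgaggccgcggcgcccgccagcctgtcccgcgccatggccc
TNFRSF14-AS1, chr1:2488401-2488700, minus strand: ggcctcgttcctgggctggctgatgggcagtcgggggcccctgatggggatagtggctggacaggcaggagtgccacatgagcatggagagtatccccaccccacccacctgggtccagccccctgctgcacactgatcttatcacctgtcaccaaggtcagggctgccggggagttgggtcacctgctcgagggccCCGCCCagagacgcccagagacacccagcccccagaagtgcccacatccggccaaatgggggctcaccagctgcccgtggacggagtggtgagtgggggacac
The first TNFRSF19 window has 49% GC, 4 CpG and no match to any of the motifs. The second has 72.7% GC, 27 CpG, 5 GC boxes and 1 NF-kB match, GGGGGCCTCC. The TNFRSF11A window has 82.3% GC, 37 CpG, 4 GC boxes and 0 NF-kB matches. The TNFRSF14-AS1 window, which lies within TNFRSF14, has 66.7% GC, 9 CpG and 1 GC box. FPKM per gene do not say which TNFRSF19 start was used.

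Of the 45 genes, 32 had a window in the RefSeq table, with 42 windows in all. The NF-kB consensus was found in 26.2% of these windows, against 7.73% of all 35116 windows in the table. GC boxes were in 59.5% and 45%, AP-1 letters in 14.3% and 7.71%, and TCF/LEF letters in 11.9% and 15.4%, of the 42 windows and of all windows. The NF-kB matches belonged to 9 genes, which were LTA, LTB, TNFSF13, TNFSF14, TNFRSF9, TNFRSF14, TNFRSF19, TNFRSF25 and TRAF3. The same LTB and TNFSF14 sites were counted in overlapping windows of the gene, so windows are not independent units. TRAF3 had GGGGATTTCC, TNFRSF9 GGGAATTTCC, TNFSF13 GGGAAATCCC, LTB GGAAAGTCCC and TNFRSF25 GGGAAGCCCC. Of the 9, 5 were in the filtered fit and TNFRSF19 passed, against 12.2% of all genes tested. These matches are letters in a window and were not tested against the fold changes.

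The other receptors that signal through TRAFs gave 1 further gene that passed with the replicate block. TNFRSF1B, the second TNF receptor, found mainly on lymphoid cells, stood at 24.2, 35.0 and 40.2 FPKM in knockout replicates 1, 2 and 3, against 12.9, 23.5 and 21.0 FPKM in non-target replicates 1, 2 and 3. Replicate 1 was the lowest library in each group, and the lowest knockout library was just above the highest non-target library. On the log2 scale the change was 0.77 ± 0.26 (SE; limma, adjusted p = 0.0862, and 6.89e-05 with the replicate block). It also passed without knockout replicate 1 (adjusted p = 0.033) and without both replicate 1 libraries (0.0211).

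LTBR, the lymphotoxin beta receptor, averaged 65.6 ± 18.7 FPKM in the knockout libraries and 63.1 ± 3.28 FPKM in the non-target libraries (SD, n = 3 each). Knockout replicate 1 was the lowest library at 44.7 FPKM and knockout replicate 3 the highest at 80.8 FPKM. Its log2 fold change was 0.01, with a 95% interval of -0.49 to 0.51 (limma, adjusted p = 0.979). TNFRSF14 (HVEM), a receptor of TNFSF14, stood at 3.02, 4.28 and 5.66 FPKM in knockout replicates 1, 2 and 3, against 6.55, 6.28 and 5.94 FPKM in non-target replicates 1, 2 and 3. The groups did not overlap but came close at replicate 3, and the gene did not pass (log2 fold change -0.48 ± 0.21 (SE); limma, adjusted p = 0.187). CD27, the receptor of CD70, averaged 2.24 ± 0.149 FPKM in the knockout libraries and 2.76 ± 1.16 FPKM in the non-target libraries (SD, n = 3 each; limma, adjusted p = 0.679). It shares exonic bases with CD27-AS1, so its reads are uncertain without strand. TNFRSF13C (BAFF receptor) averaged 1.38 ± 0.437 and 1.24 ± 0.424 FPKM in the knockout and non-target libraries (SD, n = 3 each; limma, adjusted p = 0.83).

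TNFRSF18 (GITR), a receptor of regulatory T cells, missed the filter. It stood at 1.42, 0.742 and 1.23 FPKM in knockout replicates 1, 2 and 3, against 0.507, 0.201 and 0.39 FPKM in non-target replicates 1, 2 and 3. The knockout libraries were all higher, and with no filter on low values its adjusted p was 0.0632. TNFRSF4 (OX40), TNFRSF8 (CD30) and TNFRSF9 are lymphocyte receptors and stayed at 0.165 FPKM or less in every library.

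Of the 4 decoy receptors, which bind ligand without passing on a death signal, TNFRSF10D was the one tested. It averaged 5.39 ± 0.636 FPKM in the knockout libraries and 4.27 ± 1.09 FPKM in the non-target libraries (SD, n = 3 each), with a log2 fold change of 0.29 and a 95% interval of -0.16 to 0.75 (limma, adjusted p = 0.415). The other TRAIL decoy, TNFRSF10C, was at 0.18 FPKM or less. TNFRSF6B, a decoy for FASLG and TNFSF15, stood at 0.382, 0.895 and 1.58 FPKM in knockout replicates 1, 2 and 3, against 0.502, 0.316 and 0.477 FPKM in non-target replicates 1, 2 and 3. Knockout replicate 3 was the highest library and the groups overlapped. All 1140 exonic bases of TNFRSF6B also belong to the readthrough gene RTEL1-TNFRSF6B, so its level is uncertain.

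None of the 6 TRAFs tested passed with all 6 libraries and no replicate block, and TRAF4 and TRAF6 passed with the block. TRAF4, an adaptor of epithelial cells that localises to tight junctions, stood at 23.7, 27.7 and 33.9 FPKM in knockout replicates 1, 2 and 3, against 15.1, 20.1 and 21.0 FPKM in non-target replicates 1, 2 and 3. The groups did not overlap. Its change on the log2 scale was 0.58 ± 0.20 (SE; limma, adjusted p = 0.0917, and 0.00496 with the replicate block). TRAF4 also passed without knockout replicate 1 (limma, adjusted p = 0.042), but not without both replicate 1 libraries (0.0534). TRAF6, the adaptor of Toll-like and interleukin-1 receptors, stood at 8.80, 3.39 and 2.05 FPKM in knockout replicates 1, 2 and 3, against 2.64, 1.77 and 2.04 FPKM in non-target replicates 1, 2 and 3. Knockout replicate 1 stood apart and replicate 3 was nearly equal between the groups. The change was 0.70 ± 0.37 on the log2 scale (SE; limma, adjusted p = 0.274, and 0.00279 with the replicate block), and 0.23 without knockout replicate 1 (adjusted p = 0.496). The TRAF6 value thus rests on 1 library.

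TRAF7, the most abundant TRAF, averaged 40.6 ± 2.89 FPKM in the knockout libraries and 33.5 ± 0.78 FPKM in the non-target libraries (SD, n = 3 each; limma, adjusted p = 0.311). TRAF3, an inhibitor of the alternative NF-kB arm, averaged 8.89 ± 1.27 FPKM in the knockout libraries and 6.57 ± 0.451 FPKM in the non-target libraries (SD, n = 3 each; limma, adjusted p = 0.194). TRAF5 averaged 5.66 ± 0.677 and 7.99 ± 1.17 FPKM in the knockout and non-target libraries (SD, n = 3 each; limma, adjusted p = 0.162). In TRAF7 and TRAF3 all knockout libraries were higher, and in TRAF5 all were lower, without passing the test. TRAF2, which recruits BIRC2 and BIRC3 to receptors, averaged 9.13 ± 2.27 and 8.11 ± 0.948 FPKM in the knockout and non-target libraries (SD, n = 3 each; limma, adjusted p = 0.742). TRAF1, a TRAF mostly of activated lymphocytes, missed the filter at 0.614 to 0.76 FPKM in the knockout libraries and 0.59 to 0.961 FPKM in the non-target libraries.

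TNFRSF14-AS1, the antisense RNA beside TNFRSF14, fell. It stood at 1.29, 1.63 and 1.49 FPKM in knockout replicates 1, 2 and 3, against 4.03, 2.89 and 2.84 FPKM in non-target replicates 1, 2 and 3. All knockout libraries were lower. In limma the change was -0.78 ± 0.18 on the log2 scale (SE; adjusted p = 0.0188), and leaving out knockout replicate 3, non-target replicate 2 or non-target replicate 3 ended the call (adjusted p = 0.0503, 0.0538 and 0.0542). In GENCODE it shares 826 of its 6137 exonic bases with TNFRSF14 on the opposite strand, on chromosome 1. Both genes are lower in the knockout libraries, and without strand the reads on the shared bases cannot be told apart.

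**Figure D4:**
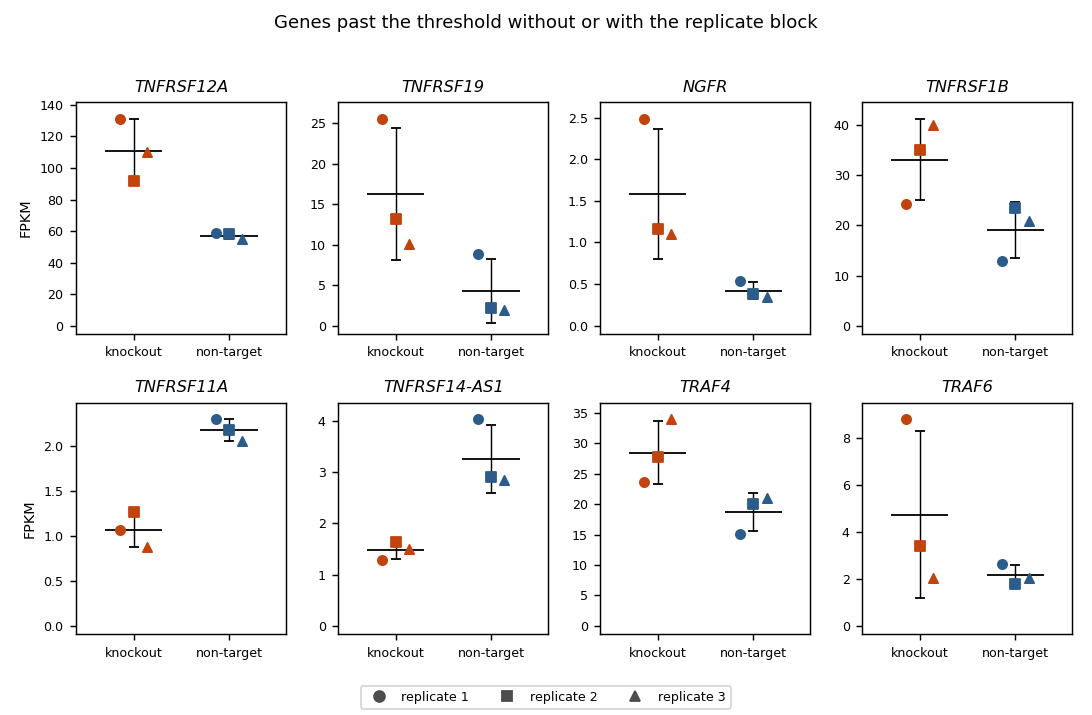
FPKM in each library of the 5 genes past the threshold and of TNFRSF1B, TRAF4 and TRAF6, which passed with the replicate block; knockout is left of non-target, symbols mark the replicate number, lines the mean and bars the SD of 3 libraries. The groups do not overlap except in TRAF6, and replicate 1 is the highest library of both groups in TNFRSF12A, TNFRSF19, NGFR and TRAF6.

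Genes around the receptors were taken from lists written down for this comparison, with earlier results of these data known. The shares of these lists set against all genes tested are therefore no independent evidence. Of 7 superfamily genes outside the symbol rule, 3 were tested and all passed, 2 higher and 1 lower, against 12.2% of all genes tested. FAS, the death receptor of FAS ligand, stood at 12.2, 11.6 and 10.04 FPKM in knockout replicates 1, 2 and 3, against 6.80, 6.26 and 6.56 FPKM in non-target replicates 1, 2 and 3. RELT, a receptor found in lymphoid tissue, stood at 8.04, 5.88 and 5.71 FPKM in knockout replicates 1, 2 and 3, against 2.84, 3.70 and 3.29 FPKM in non-target replicates 1, 2 and 3. Neither gene overlapped between groups, with log2 fold changes of 0.70 and 0.81 (limma, adjusted p = 0.0188 and 0.0211). FAS did not pass without knockout replicate 2, non-target replicate 2 or non-target replicate 3, and RELT without these or non-target replicate 1, with adjusted p up to 0.12 and 0.0897. Neither passed with TPM scaling. EDAR, the ectodysplasin receptor of skin appendages, averaged 0.563 ± 0.121 FPKM in the knockout libraries and 2.02 ± 0.576 FPKM in the non-target libraries (SD, n = 3 each), a log2 fold change of -0.93 (limma, adjusted p = 0.00808). It reached 1 FPKM in the non-target libraries alone, so the filter partly sets its place among the genes that differ.

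Of 22 receptor-proximal adaptors, kinases and ubiquitin enzymes, 21 were tested, 1 rose, 0 fell and 20 did not pass, and 4 rose with the replicate block. These shares, 4.76% and 19%, were below the 12.2% and 25.3% of all genes tested. Their median log2 fold change was 0.02. The one that rose was MAP3K14, the kinase of the alternative NF-kB arm. It stood at 18.0, 14.2 and 13.5 FPKM in knockout replicates 1, 2 and 3, against 5.37, 6.93 and 7.27 FPKM in non-target replicates 1, 2 and 3. The lowest knockout library was well above the highest non-target library (log2 fold change 1.11 ± 0.18 (SE); limma, adjusted p = 0.00357), and the gene passed whichever single library was left out (adjusted p up to 0.0225). The adaptors TRADD and FADD, the kinase RIPK1 and the deubiquitinases TNFAIP3 and CYLD did not pass.

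In the alternative NF-kB arm, all 8 listed genes were tested, 2 rose, 0 fell and 6 did not pass, and 4 rose with the replicate block. That is 25% and 50% of the list, against 12.2% and 25.3% of all genes tested, and on each gene's own spread with the block 0 passed. The median was 0.45 in this list, against 0.02 over all genes tested. RELB, the transcription factor of this arm, stood at 8.97, 9.86 and 12.3 FPKM in knockout replicates 1, 2 and 3, against 5.48, 4.99 and 4.13 FPKM in non-target replicates 1, 2 and 3. The groups were well apart (log2 fold change 0.95 ± 0.18 (SE); limma, adjusted p = 0.00831), though without non-target replicate 3 the adjusted p was 0.0548. NFKB2, its partner subunit, averaged 18.5 ± 2.75 FPKM in the knockout libraries and 12.3 ± 1.28 FPKM in the non-target libraries (SD, n = 3 each; limma, adjusted p = 0.0716, and 0.00909 with the replicate block). BIRC3 averaged 2.63 ± 0.298 and 1.56 ± 0.322 FPKM in the knockout and non-target libraries (SD, n = 3 each; limma, adjusted p = 0.0877, and 0.0314 with the replicate block). BIRC2, CHUK, TRAF2 and TRAF3 did not pass under either fit. The values of this arm are RNA levels, and neither MAP3K14 protein nor the activity of the arm was measured. The arm's list shares MAP3K14, BIRC2 and BIRC3 with the list before it, and TRAF2 and TRAF3 with the 45 genes.

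**Figure D5:**
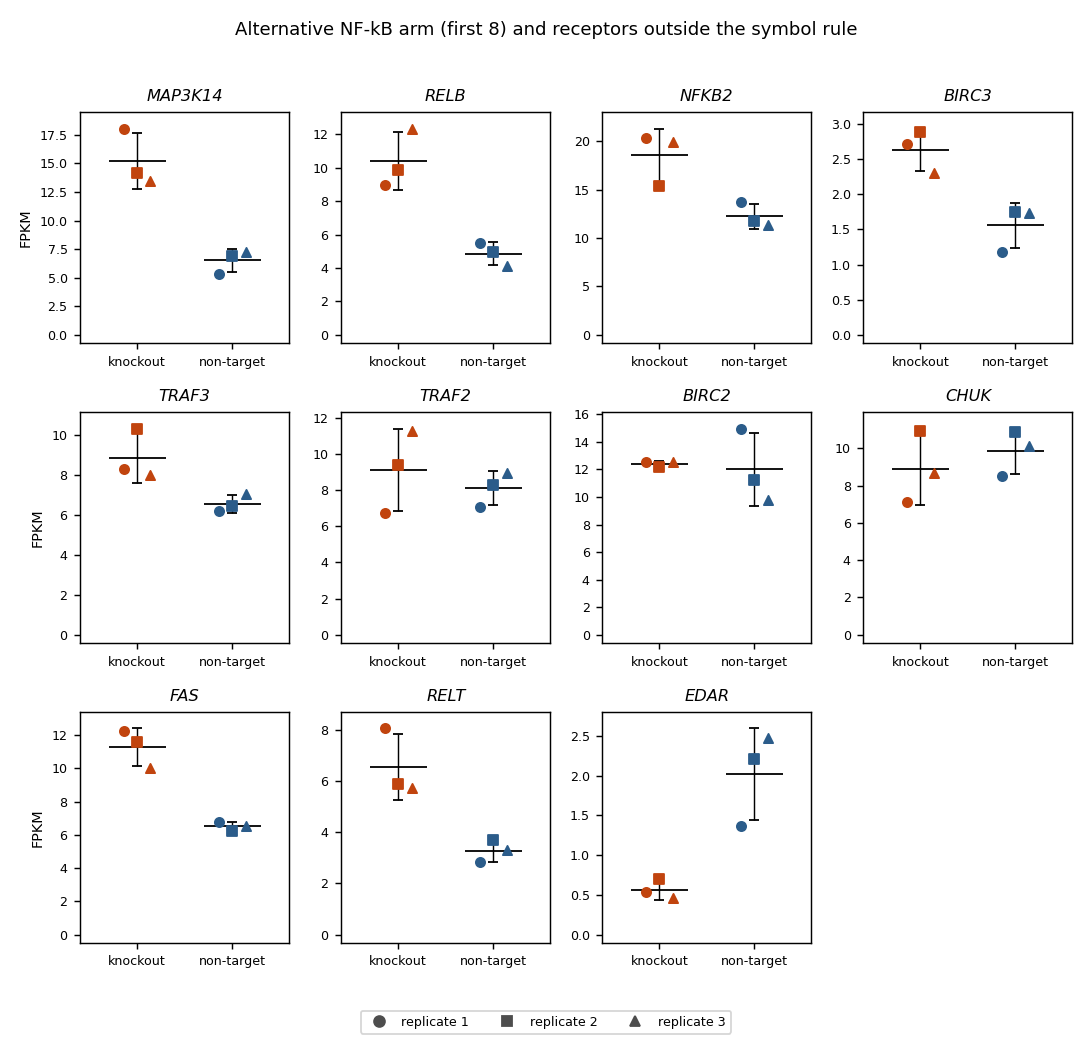
FPKM in each library of the 8 listed genes of the alternative NF-kB arm and of FAS, RELT and EDAR; knockout is left of non-target, symbols mark the replicate number, lines the mean and bars the SD of 3 libraries. MAP3K14, RELB, NFKB2, BIRC3, TRAF3, FAS and RELT are higher and EDAR is lower in all 3 knockout libraries.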

How the data were processed

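Poly-A RNA of 6 LoVo libraries was sequenced from dUTP-marked cDNA on a DNBSEQ instrument, per the labels' protocols. The deposited values are FPKM that the authors computed with STAR 2.7.10b after trimming and TopHat2 2.1.1 alignment to hg19 with UCSC genes, per the series' design text and the submitters' processing notes. The kit marks strand, but whether counting used it, and how shared reads were treated, are not given in the sources used here. Because FPKM are shares of a mapped total, a large change in some genes moves the others. A symbol missing from a list was set to 0. Single-transcript genes gave the depth estimate: 67 to 97 low values per library lay within 2% of a common step against a median of 7 to 10 at other steps. Most genes gave no whole fragments, so no count test was run.

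Knockout was compared with non-target by limma 3.58.1 (R 4.3.3; trend and robust options of the moderated test, two-sided) on log2(FPKM + 1). Genes entered if 3 or more of the 6 libraries reached 1 FPKM, with Benjamini-Hochberg adjustment over all genes and a threshold of 0.05. The fit was also run on simulated data with independent noise in each library. That run had no replicate effect and no near-identical libraries, so it does not test the fit under those features. Same-numbered libraries of the groups deviated together (r = 0.547, 0.309 and 0.331 across genes for replicates 1, 2 and 3), and the block fit takes the numbers to pair them. Deviations were taken from each group's own mean, so the values for replicates 2 and 3 largely follow from replicate 1. Replicates 2 and 3 are not told apart, since crossing them gave 0.32 and 0.321. The pairing thus rests on replicate 1. Positions are from GENCODE on GRCh37. The genes and lists were chosen with earlier results of these data known. Named are the genes past the threshold without or with the replicate block and the 3 most abundant ligands, receptors and TRAFs; the others are given by level. Of the listed genes, up to 4 per list past the threshold are named; NFKB2, BIRC3 and the genes said not to pass were chosen after their values were seen. Amino acid sequences were not used here.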

Additional observations from a re-analysis of the deposited data

How the results depend on the processing

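Of 5 genes of the family past the threshold, 2 passed when the mean had to reach 5 FPKM, 8 with a replicate block, and 1 with non-target replicates 2 and 3 as 1 sample; leaving out single libraries gave 1 to 6, with 3 without knockout replicate 2, 2 without knockout replicate 3, 3 without non-target replicate 1, and 1 (TNFRSF12A) without non-target replicate 2 or 3. Over all genes, 1597 passed, against 865 under that filter, 3309 with the block, 944 with those 2 libraries as 1 sample, and 911 to 1970 without single libraries. Of 27 listed pathway genes tested outside the family 5 passed, against 3, 9 and 3 under the same settings, 3 with TPM scaling, 8 without both replicate 1 libraries, and 2 to 7 without single libraries. Fewer genes are tested under the stricter filter. TPM scaling gave 605 higher and 766 lower. Added after the data were seen were fits on each gene's own spread. They gave 715 genes, 1 of the family (TNFRSF11A) and 1 listed gene, and 0, 0 and 0 with the block, where 2598 genes had an unadjusted p below 0.05 and the lowest adjusted p was 0.0834. Of 559 single-gene values under alternatives 500 stayed on the same side of the threshold, with direction checked only where a gene was called. Of the rest, 53 were no longer past it, 6 newly passed and 0 changed direction while called. Of the genes past the threshold 51.3% were higher, against 60% under that filter and 39.9% with no filter. The cause was not tested. TNFRSF1A, LTBR and TNFRSF25, uncalled and near 0, changed sign between scalings.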

Other observations

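Replicate 1 was the highest library of both groups in 11 of the 25 genes tested, or 44%, against 24.4% of all genes tested. Among the 45 genes they were 15, namely TNFSF9, TNFSF10, CD70, TNFRSF1A, TNFRSF10B, TNFRSF10C, TNFRSF12A, TNFRSF13C, TNFRSF18, TNFRSF19, TNFRSF25, NGFR, CD27, TRAF5 and TRAF6. In TNFRSF1B and TRAF4 replicate 1 was the lowest library of both groups. The labels do not say what a replicate number marks.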
